A study of Mus musculus with 6 samples.

Results

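Integrins are cell-surface receptors and laminins are among their main ligands, and both families were measured here in mouse branchial arch 1 at embryonic day 11.5. The members are all probe sets whose single gene symbol in the array's annotation names an integrin chain or a laminin chain, which gave 76 of the array's 45101 probe sets. They stand for 35 of the 18194 genes measured, 25 integrin genes with 57 probe sets and 10 laminin genes with 19. Where a gene had several probe sets, the one with the highest mean over the 6 arrays gave the gene's level. The rule reads names only, but it was set with earlier results of these data known.

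The arch is the embryonic tissue that forms the jaws, and neural crest cells supply most of its mesenchyme. Ezh2 encodes the histone methyltransferase of a Polycomb complex, and in all embryos of both groups both of its copies were lox alleles, which Cre can recombine. The 3 samples labelled control were Ezh2lox/lox, and the 3 labelled mutant were Wnt1Cre Ezh2lox/lox, with a Cre transgene driven in the neural crest lineage. Epithelium, endothelium, blood and the muscle precursors of the arch are not made by the crest, so that the Cre was not aimed at them. The labels give 1 arch per embryo and 1 array per biological replicate, and do not say whether a replicate pools embryos.

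Each group is called by its label. The targeted gene, Ezh2, read 11.80, 11.52 and 11.56 on the labelled-control arrays and 11.66, 11.66 and 11.65 on the labelled-mutant arrays, on a log2 signal scale that is used throughout. Its probe set was not placed relative to the deleted part, so it checks no label. Xist, the RNA of the inactive X chromosome, read 5.45 to 5.75 on labelled-control and 12.92 to 13.10 on labelled-mutant arrays. The labels thus coincide with a male and a female pattern, and genotype and sex cannot be told apart in any difference below. Hox genes, textbook targets of Polycomb repression, were lower in the labelled-mutant arches, with 22 of 33 called lower by limma and 0 higher. Of all genes, 4.3% were called lower and 1.23% higher. Loss of Polycomb function is known to raise Hox genes, and whether the labels are exchanged was not tested. An exchange would turn the sign of every difference below. Mesenchymal markers of the arch were present on every array, with a mean over 12 markers of 9.69 to 10.20. Differences are labelled mutant minus labelled control. A gene is said to rise or fall only where limma's Benjamini-Hochberg adjusted p over all 18194 genes was at most 0.05. Values are mean ± SD with n = 3 arrays, and the 95% limits of a difference come from limma.

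An integrin is a pair of 1 alpha and 1 beta chain. The alpha chain largely sets which ligand is bound, and the tail of the beta chain recruits talin, kindlin and other adaptors that link the receptor to actin. A laminin is a trimer of 1 alpha, 1 beta and 1 gamma chain, and laminin networks together with collagen IV, nidogens and perlecan make up the basement membrane. In the face, these contacts carry the migration of crest cells, the adhesion of epithelium to mesenchyme and the sheaths of nerves, muscle and vessels.

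Of the integrin genes, 3 had an unadjusted p of at most 0.05, the lowest of the family, and for this reason the stretches before their annotated starts are shown. The sequences are those of RefSeq (build GRCm38.p6), 250 bases up to the base before the start, read along the gene's strand. Capitals mark CG dinucleotides, the sites of DNA methylation in mammals and the feature of the promoters at which Polycomb complexes are mostly found. Itga3, with 2 annotated starts, is listed at the lower coordinates first.
Itga3 chr11:95069199-95069448 (minus strand): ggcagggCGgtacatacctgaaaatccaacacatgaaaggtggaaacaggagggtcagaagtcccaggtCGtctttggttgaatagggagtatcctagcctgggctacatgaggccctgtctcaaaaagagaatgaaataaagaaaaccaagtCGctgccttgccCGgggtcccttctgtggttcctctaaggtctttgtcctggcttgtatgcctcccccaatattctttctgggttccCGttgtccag
Itga3 chr11:95076715-95076964 (minus strand): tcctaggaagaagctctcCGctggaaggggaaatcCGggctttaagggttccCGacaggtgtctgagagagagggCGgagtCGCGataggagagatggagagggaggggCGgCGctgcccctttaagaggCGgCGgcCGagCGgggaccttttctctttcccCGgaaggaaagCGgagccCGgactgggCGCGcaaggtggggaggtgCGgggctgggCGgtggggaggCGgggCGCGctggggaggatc
Itgax chr7:128129300-128129549 (plus strand): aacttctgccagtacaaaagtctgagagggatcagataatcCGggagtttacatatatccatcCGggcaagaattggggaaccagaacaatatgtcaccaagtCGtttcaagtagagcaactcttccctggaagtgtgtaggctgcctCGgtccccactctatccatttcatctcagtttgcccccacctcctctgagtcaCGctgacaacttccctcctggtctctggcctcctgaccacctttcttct
Itgb1 chr8:128685404-128685653 (plus strand): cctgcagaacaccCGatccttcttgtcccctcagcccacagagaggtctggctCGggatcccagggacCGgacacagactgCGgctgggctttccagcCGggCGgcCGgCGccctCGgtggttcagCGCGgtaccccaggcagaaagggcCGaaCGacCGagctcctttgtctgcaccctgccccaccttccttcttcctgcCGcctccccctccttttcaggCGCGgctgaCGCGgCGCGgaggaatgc

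The 2 starts of Itga3 differ, with 5 CG dinucleotides before one and 22 before the other. Itgb1 had 21 and Itgax 5. Over the 32851 promoters of the table the quartiles were 2, 6 and 16. The table held 23 of the 35 members. Lama1 and Lama4, the only members called below, were not among them, so their stretches could not be shown. Among the other leukocyte chains, Itgam had 6, Itgb7 5 and Itgb2l 1. Itgav, Itgb5 and Itga8 had 18 each, Itga2 and Itgb8 12, Itga5 11, Itga1 and Itga9 10 and Itga4 6. Of the laminin genes, Lama5 had 19, Lamb1 14, Lamb2 3 and Lama2 0. The GC box, GGGCGG on either strand, was present in 9 of 26 member windows (34.6%), against 32.7% of all promoters. That share is near the background. Since no integrin gene passed the test, these counts describe the promoters and were not set against the differences.

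Laminin alpha chains were the part of the 2 families in which calls were made. Lama1 rose and Lama4 fell, while the other 3 alpha chains and all 5 beta and gamma chains measured did not pass. The calls were 2 of 10 laminin genes and 0 of 25 integrin genes, against 5.53% of all genes. By direction, 1.23% of all genes were called higher and 4.3% lower. The median difference was 0.01 over the integrin genes, 0.00 over the laminin genes and 0.02 over all genes.

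Lama1 encodes the alpha chain of the first laminin of the embryo, a component of early epithelial basement membranes. Its single probe set read 7.33, 7.25 and 6.99 on the labelled-control arrays and 7.97, 8.01 and 8.10 on the labelled-mutant arrays. Every labelled-mutant array lay above every labelled-control array, and the gap between the groups was wider than the range within either. The rise was 0.84, or 1.79-fold, with a standard error of 0.10 and 95% limits of 0.61 and 1.07 (limma, Benjamini-Hochberg adjusted p = 0.0026). It passed under each of 13 alternative settings, with a difference of 0.74 to 0.91 and an adjusted p between 0.0016 and 0.0449. Not all of these could alter its values. All arrays share 1 distribution, so quantile normalization and median centring hardly could, and Lama1 has only 1 probe set to average. Adjusted over all 45101 probe sets, of which 2.14% were called, its probe set passed too (limma, Benjamini-Hochberg adjusted p = 0.0087), the only 1 of the 76. That probe-set call was lost with signals floored and without labelled-mutant array 2 or 3, where 0 member probe sets passed.

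Lama4 encodes the alpha chain of laminins of blood vessels, nerve sheaths and mesenchyme. It read 8.32, 8.55 and 8.64 on the labelled-control arrays and 8.13, 7.93 and 7.92 on the labelled-mutant arrays. The groups did not overlap, but labelled-control array 1 and labelled-mutant array 1 lay close together. The fall was 0.51, with 95% limits of -0.75 and -0.27, so that the labelled-control level was 1.42-fold the labelled-mutant level (limma, Benjamini-Hochberg adjusted p = 0.0287). The call was less firm than that of Lama1. By the same limma test the adjusted p was 0.105 without labelled-control array 2, 0.0683 without labelled-control array 3, 0.126 without labelled-mutant array 2 and 0.135 without labelled-mutant array 3. Adjusted over all probe sets it was 0.0679. It also missed the threshold with the mean of both probe sets (-0.35, adjusted p = 0.0890) and with floored signals (adjusted p = 0.103). A dimmer probe set of Lama4, with a mean of 4.32 in the labelled-control arches, differed by -0.20 in the same direction and did not pass.

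**Figure D1:**
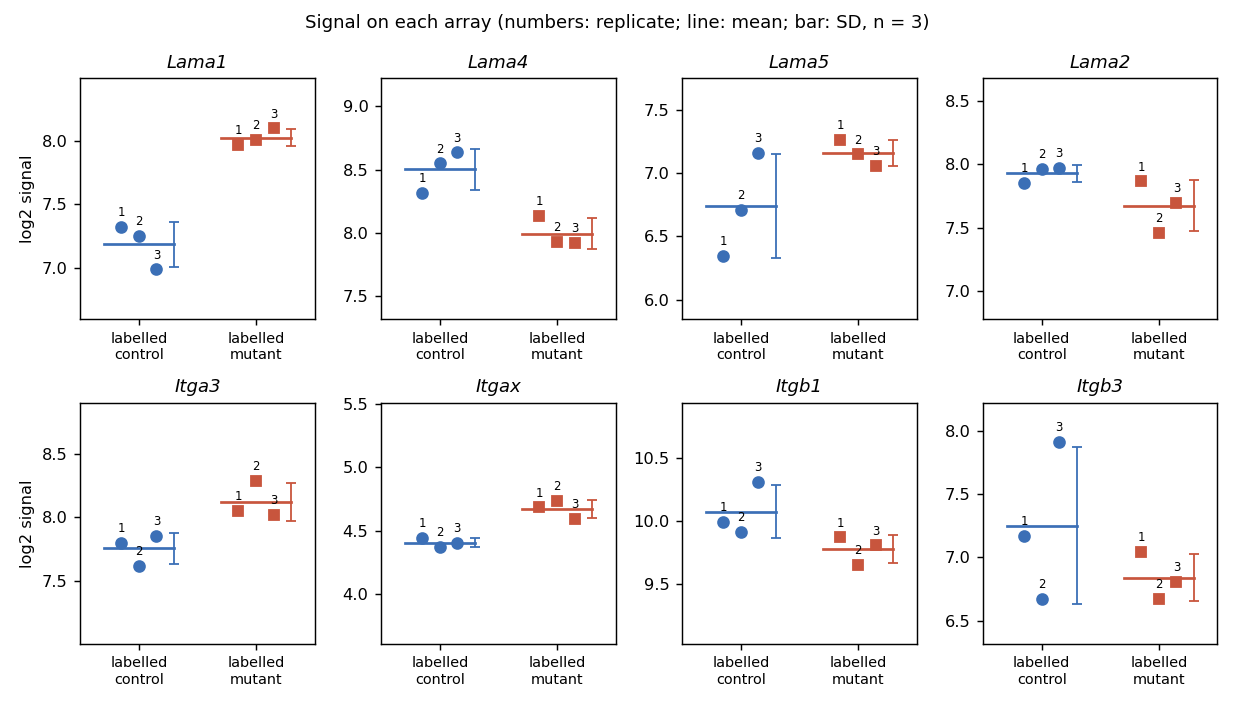
Log2 signal on each array for 4 laminin alpha chains (top) and 4 integrin chains (bottom), with labelled-control arrays as blue circles and labelled-mutant arrays as red squares; numbers give the replicate, the line the mean and the bar the SD of 3 arrays, and all panels span the same height. The groups are apart for Lama1, Lama4, Itga3, Itgax and Itgb1 and overlap for Lama5, Lama2 and Itgb3, where labelled-control array 3 stands at 7.91.

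The remaining alpha chains differed without passing. Lama5, the main alpha chain of epithelial basement membranes of the later embryo, read 6.35, 6.71 and 7.16 on the labelled-control arrays and 7.26, 7.15 and 7.06 on the labelled-mutant arrays. Its highest labelled-control array lay above the lowest labelled-mutant array. The difference was 0.42 with 95% limits of 0.01 and 0.83 (limma, Benjamini-Hochberg adjusted p = 0.261). Leaving out labelled-control array 3 made it 0.63, which passed (0.0312 by the same limma test). Of its other probe sets, one differed by 0.32 and a dim one by -0.17, and the mean of all 3 probe sets differed by 0.19.

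Lama2, the alpha chain of muscle and Schwann cell basement membranes, read 7.85, 7.96 and 7.97 on the labelled-control and 7.87, 7.46 and 7.70 on the labelled-mutant arrays. The groups overlapped by 1 array, and the difference was -0.25 (95% limits -0.50 and -0.01; limma, Benjamini-Hochberg adjusted p = 0.257). Lama3, the alpha chain of the laminin that anchors epidermis, lay below the array's median on every array, and its 2 probe sets differed by -0.05 and -0.55. The latter, from the dimmer probe set, was the largest fall of any member probe set. It read 4.4 to 5.055 against 4.049 to 4.332, apart but partly below the array's 25th percentile. Over all probe sets it did not pass (limma, Benjamini-Hochberg adjusted p = 0.180).

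The beta and gamma chains, which are shared between trimers, differed by -0.23 to 0.14 and did not pass. The 95% limits lay within 0.5 of 0 for 3 of these 5 genes. Lamb1, the beta chain of most embryonic laminins, read 11.13, 11.24 and 11.25 on the labelled-control arrays and 11.14, 11.08 and 11.12 on the labelled-mutant arrays. The labels overlapped, and the 95% limits of the difference were -0.26 and 0.08. Over its 4 probe sets the difference ranged from -0.28 to 0.10. Lamc1, the gamma chain of most laminins, differed by 0.05 (95% limits -0.27 and 0.36). Lamb2, the beta chain of neuromuscular and vessel laminins, differed by -0.23 (95% limits -0.55 and 0.09). It passed when labelled-control array 1 was left out, at -0.40 (limma, Benjamini-Hochberg adjusted p = 0.0463), but under no other setting. Lamb3 and Lamc3 differed by 0.14 and 0.08. The level of Lamb3, a partner of Lama3, rested on labelled-mutant array 1, which read 5.97 where the other 5 arrays read 5.35 to 5.53.

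No integrin gene passed the test. With limma 0 of 25 had an adjusted p of at most 0.05, and 3 had an unadjusted p of at most 0.05, 2 of them higher and 1 lower. The share at that unadjusted p was 18.7% over all genes. Groups without overlap were seen for 5 of the 25 integrin genes (20%) and 2 of the 10 laminin genes (20%), against 24.9% of all genes. Among integrins these were Itga3, Itgax and Itga2, higher, and Itga6 and Itgb1, lower. The adjusted p of the 25 genes lay between 0.0857 and 0.977. A missed threshold does not show equal levels, and the 95% limits give the size of difference that remains possible. They lay within 0.5 of 0 for 22 of the 25 integrin genes and within 1 for 24, the exception being Itgb3 with limits of -1.02 and 0.20.

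**Figure D2:**
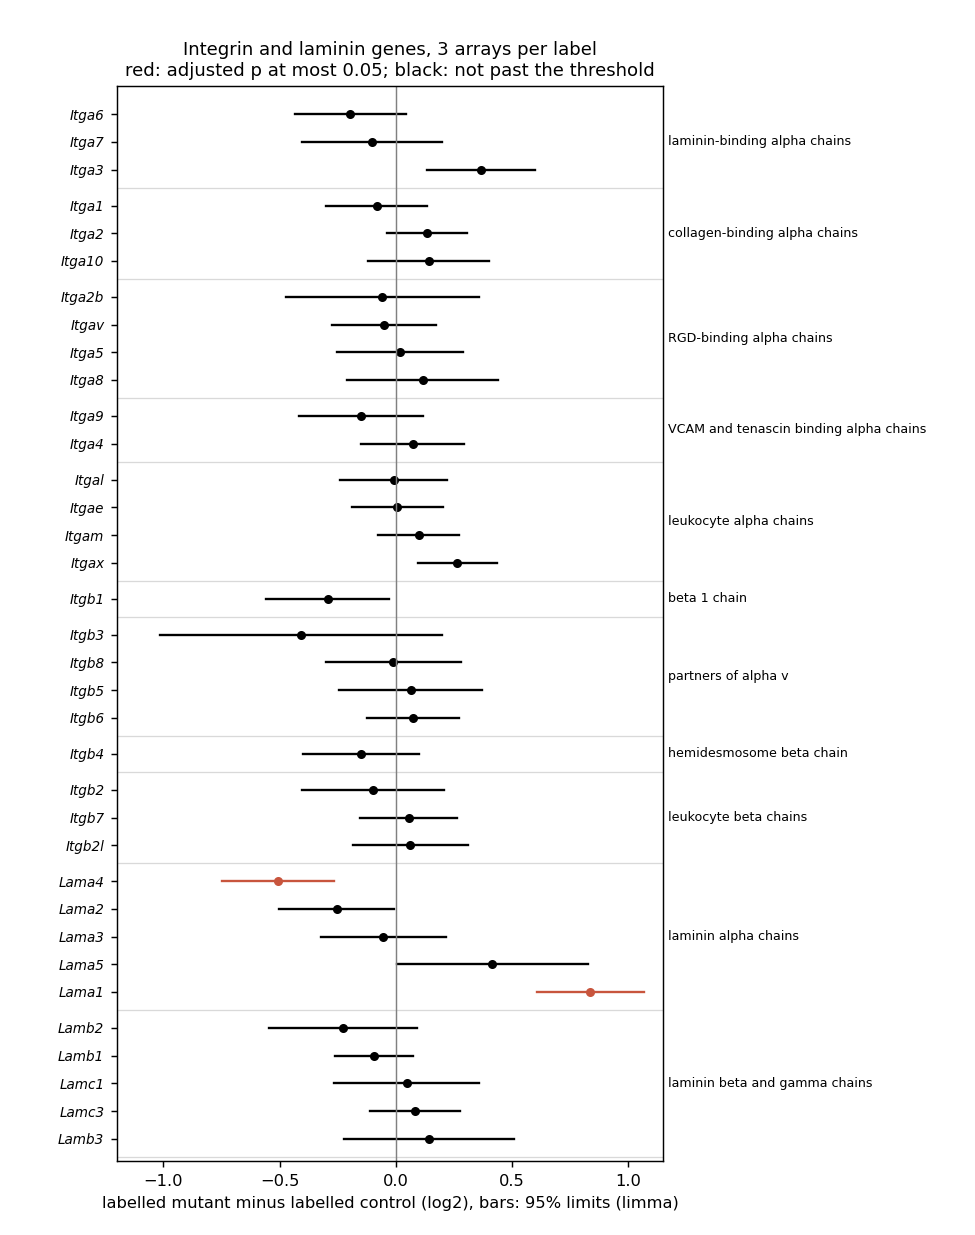
Difference between labels (labelled mutant minus labelled control, log2) for each of the 25 integrin and 10 laminin genes, grouped by the chain's role; points are estimates and bars 95% limits from limma with 3 arrays per label. The 2 genes past the threshold, Lama1 at 0.84 and Lama4 at -0.51, are drawn in red, and most integrin bars include 0.

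Among the laminin-binding alpha chains, Itga3 came closest to the threshold. It pairs with beta 1 as a laminin receptor of epithelium. It read 7.80, 7.62 and 7.85 on the labelled-control arrays and 8.05, 8.29 and 8.02 on the labelled-mutant arrays. The groups did not overlap, and the difference was 0.37 with 95% limits of 0.13 and 0.60 (limma, Benjamini-Hochberg adjusted p = 0.0857). Another probe set of Itga3 read 6.03 to 6.25 against 6.51 to 6.55, a difference of 0.37, and the dimmest gave 0.02.

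Itga6, which pairs with beta 1 or beta 4, read 10.21, 10.19 and 10.54 on the labelled-control and 10.14, 10.14 and 10.07 on the labelled-mutant arrays. The groups were apart by a narrow margin, with a difference of -0.20, and a dimmer probe set differed by 0.14 in the other direction, leaving -0.03 for their mean. Itga7, the laminin receptor chain of muscle, lay below the array's median on every array and differed by -0.10.

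Itgb1, the beta chain shared by the largest number of alpha chains, read 9.99, 9.91 and 10.31 on the labelled-control arrays and 9.87, 9.65 and 9.81 on the labelled-mutant arrays. Its lowest labelled-control array was just above its highest labelled-mutant array. The difference was -0.29 with 95% limits of -0.56 and -0.03 (limma, Benjamini-Hochberg adjusted p = 0.219). All 6 probe sets of Itgb1 had a negative difference, from -0.05 to -0.34, and their mean differed by -0.16. Itgb4, the beta chain of hemidesmosomes, differed by -0.15 at signals below the median.

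The collagen-binding chains Itga1, Itga2 and Itga10 differed by -0.08, 0.13 and 0.14. Itga2 read 5.80 to 5.87 against 5.90 to 6.04, so that its arrays were apart while the difference stayed small (limma, Benjamini-Hochberg adjusted p = 0.388). The fibronectin receptor chain Itga5 differed by 0.02 and the chain Itga8, a receptor of mesenchyme facing epithelium, by 0.12. Itgav, the chain that pairs with beta 1, 3, 5, 6 and 8 and binds RGD-containing ligands, read 11.37, 11.02 and 11.18 against 11.15, 11.16 and 11.11. The labelled-mutant arrays of Itgav lay inside the range of the labelled-control arrays. Its partners Itgb5, Itgb6 and Itgb8 differed by 0.06, 0.07 and -0.01. Itga4 and Itga9, which bind VCAM and tenascin as well as fibronectin, differed by 0.07 and -0.15.

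The chains of leukocyte integrins lay low on the arrays. All 7, Itgae, Itgal, Itgam, Itgax, Itgb2, Itgb2l and Itgb7, were below the array's median on every array. Itgam was also below the 25th percentile of 4.33 on every array, as was Itgb6. Itgax, the alpha chain of dendritic and myeloid cells, read 4.44, 4.38 and 4.40 on the labelled-control and 4.68, 4.74 and 4.59 on the labelled-mutant arrays. The groups were apart by a small step of 0.26 (95% limits 0.09 and 0.44; limma, Benjamini-Hochberg adjusted p = 0.0908). Itgb2, its obligate partner, differed by -0.10. Of 14 macrophage and leukocyte markers 0 were higher and 1, Ptprc (-0.46), was lower, against 1.23% and 4.3% of all genes. Mrc1 (-0.87) and Csf1r (-0.46) did not pass. The difference was negative for 13 of the 14, with a median of -0.20. Groups were apart for 5 that were lower and 1 that was higher, or 42.9% against 24.9% of all genes. The mean level of the 14 was 6.56 to 7.08 on labelled-control and 6.42 to 6.67 on labelled-mutant arrays.

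Different probe sets of a member did not always give the same sign. Of the 35 members 21 had more than 1 probe set, and in 10 of these all had the same sign whereas in 11 they did not. The widest spread was that of Itgb3, with -0.41 for the brighter, 0.24 for the dimmer and -0.08 for the mean of both. The dimmer one read 5.39 to 5.46 on labelled-control and 5.55 to 5.80 on labelled-mutant arrays, so that its groups were apart. The brighter one overlapped.

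**Figure D3:**
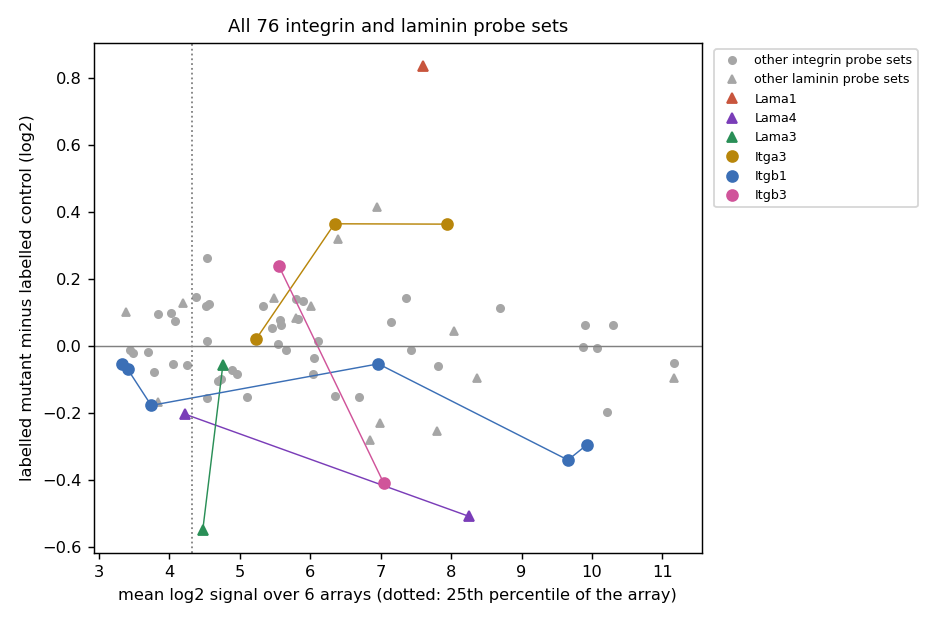
Difference between labels (log2) of each of the 76 integrin and laminin probe sets against its mean log2 signal over 6 arrays, with circles for integrins and triangles for laminins; coloured lines join the probe sets of 1 gene and the dotted line is the array's 25th percentile, 4.33. The probe sets of Itgb1 all lie below 0, those of Itgb3 lie at -0.41 and 0.24, and Lama1 stands alone at 0.84.

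Itga2b and Itgb3, the chains of the platelet integrin, varied among arrays of 1 label. Itga2b read 7.73, 7.51 and 8.28 on the labelled-control arrays and 7.93, 7.62 and 7.80 on the labelled-mutant arrays. Itgb3 read 7.17, 6.68 and 7.91 against 7.04, 6.68 and 6.80. Both were highest on labelled-control array 3 and low on array 2 of either label. The mean of 7 platelet and megakaryocyte markers was 6.90, 6.82 and 7.54 on the labelled-control and 7.19, 6.67 and 6.90 on the labelled-mutant arrays, with the same arrays highest and lowest. None of these 7 markers passed with limma (0 also at an unadjusted p of 0.05), among them Ppbp (-0.88), Pf4 (-0.43) and Clec1b (0.34). The part of platelet RNA in the levels of Itgb3 was not tested. In a piece of tissue, fewer cells of a type and less RNA per cell cannot be told apart, here as for every gene below.

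**Figure D4:**
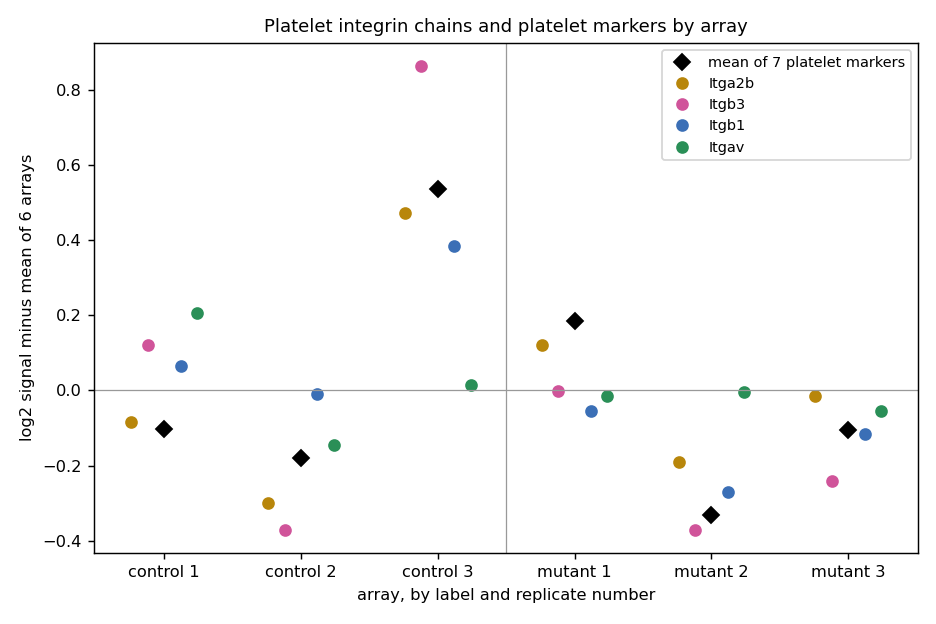
Log2 signal of 4 integrin chains and the mean of 7 platelet markers on each of the 6 arrays, each as the difference from its own mean over the arrays. Itga2b, Itgb3 and the platelet markers are highest on labelled-control array 3, where Itgb1 is high as well and Itgav is not.

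Labelled-control array 3 was the highest of the 6 arrays for 11 of the 25 integrin genes and 5 of the 10 laminin genes, against 24.8% of all genes. It also had the highest mean of the macrophage, platelet, erythroid, epithelial, skeletal muscle and glial markers, but the lowest of the smooth muscle and pericyte markers (7.13), and it was not the highest for endothelial or neuronal markers. Without it, 0 integrin genes passed, the difference of Itgb3 was -0.08 and that of Itgb1 -0.17, and Lama1 passed at 0.74.

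Markers of the cells that make or carry these chains moved in part. Of 16 epithelial markers 1, Krt8 (0.52), was higher and 0 were lower, against 1.23% and 4.3% of all genes. Krt15 (-1.12) and Krt18 (0.32) did not pass. The mean level of the 16 markers spanned 8.07 to 8.81 on labelled-control and 8.31 to 8.48 on labelled-mutant arrays. Labelled-control array 3 alone made the groups overlap, since labelled-control arrays 1 and 2, at 8.07 and 8.16, lay below every labelled-mutant array. The part of epithelial RNA in the values of Lama1, Lama5 and Itga3 was not tested. Of 12 endothelial markers 0 passed with limma, 0 at an unadjusted p of 0.05, with Erg at -0.19, Plvap at -0.16 and Tie1 at -0.24. Their mean level was 7.73 to 8.01 against 7.81 to 7.91.

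Marker lists of other cell types differed in how many members fell or rose. Over all genes 4.3% were called lower and 1.23% higher. Of 6 glial markers 2 fell, Sox10 by 0.66 and Cdh19 by 1.29, while Erbb3 (-0.55) did not pass, and their mean level went from 6.46 to 7.13 to 6.10 to 6.32. Of 13 skeletal muscle markers 7 fell, among them Pax7 (-0.97), Myog (-2.25) and Msc (-0.70), with mean levels of 6.65 to 7.004 against 5.81 to 6.42. Of 10 smooth muscle and pericyte markers 1 fell, Acta2 (-1.41), while Rgs5 (1.18) and Pdgfrb (-0.27) did not pass. Their mean levels overlapped at 7.13 to 7.48 and 7.18 to 7.37. Of 9 neuronal markers 5 fell, among them Nefl (-2.56), Nefm (-2.51) and Isl1 (-0.85). Of 8 erythroid markers 1 fell, Slc4a1 (-0.70), while Alas2 (-0.61) and Hba-x (-0.30) did not pass. Of the mesenchymal markers 5 of 12 rose, among them Dlx5 (1.18), Dlx2 (0.97) and Dlx1 (0.67), and 1, Pdgfra (-0.63), fell. Over the 12 the difference was positive for 9 and negative for 3, among the latter Twist1 (-0.20) and Barx1 (-0.08), which did not pass. The calls of Ptprc, Krt8, Sox10, Cdh19, Msc, Acta2 and Slc4a1 were each lost without some single arrays, in 4 or 5 of 6 cases, and that of Myog without labelled-control array 2. With the mean of probe sets Sox10 differed by -0.16, Acta2 by -0.41, Ptprc by -0.17, Slc4a1 by -0.45, Isl1 by -0.47 and Krt8 by 0.49, and none of these passed. Pdgfra was not followed under the alternative settings. Of the other named markers that had passed, Nefl, Nefm, Dlx1, Dlx2 and Dlx5 did so again with signals floored and the rest did not. Trend and robust settings ended the calls of Acta2 and Cdh19. With the replicate number as a block, Acta2, Krt8, Ptprc, Slc4a1 and Sox10 did not pass. The part of cell makeup in the differences of the laminin genes was not tested.

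Most of the calls among ligands of the integrins were lower, as were 783 of the 1007 calls over all genes. The list of ligand and basement membrane genes had 44 measured members, of which 11 fell, 1 rose and 32 missed the threshold, with a median difference of -0.15, against 4.3% of all genes called lower and a median of 0.02. The list was drawn up with earlier results of these data known, and some of its members were among them. Of the 12 calls, 7 held without any single array.

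The largest falls were those of Egfl6, Tnc and Vcam1. Egfl6, a basement membrane ligand of the Itga8 receptor, read 8.40, 8.69 and 8.72 on the labelled-control and 6.54, 6.19 and 6.12 on the labelled-mutant arrays. The groups were far apart, and the fall was 2.32 (limma, Benjamini-Hochberg adjusted p = 4.16e-05). Egfl6 is X-linked, and without the X-linked members the count was 10 lower and 1 higher of 41. Frem1, a matrix protein of the epithelial border, fell by 0.66, whereas Npnt, the classical ligand of Itga8, had a difference of 0.57 that did not pass (limma, Benjamini-Hochberg adjusted p = 0.149).

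Vcam1, the cell-surface ligand of Itga4, read 10.05, 10.57 and 10.29 against 8.81, 8.55 and 8.57. It fell by 1.66 with no overlap. Tnc, the tenascin bound by Itga9 and Itgav integrins, read 8.91, 9.51 and 8.98 against 7.66, 6.27 and 6.78 and fell by 2.23, with a wide spread among the labelled-mutant arrays. Postn and Edil3, ligands of Itgav integrins, fell by 1.45 and 0.60, but the mean of the 6 probe sets of Edil3 differed by -0.03 (limma, Benjamini-Hochberg adjusted p = 0.886). Fibronectin, Fn1, the ligand of Itga5, had a difference of -0.33 that did not pass (limma, Benjamini-Hochberg adjusted p = 0.0999).

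The fibrillar collagen genes Col1a1, Col1a2 and Col3a1, whose products bind the collagen receptors, fell by 0.74, 0.78 and 0.64. Ntn4, a netrin that binds laminin gamma chains, fell by 0.80, although the mean of its probe sets differed by -0.35 and did not pass (limma, Benjamini-Hochberg adjusted p = 0.156). Col7a1, the anchoring fibril that holds the Lama3 laminin, fell by 0.67. Ccn2, a secreted matrix-associated ligand of integrins, rose by 1.07 from 8.29 to 9.27 against 9.68 to 10.15. Of the basement membrane partners of laminin, Nid1, Nid2 and the perlecan gene Hspg2 differed by 0.00, -0.29 and 0.24, and the laminin receptor Dag1 by 0.01, without passing.

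The calls of 5 of these genes hung on single arrays. Ccn2 and Col7a1 lost theirs without labelled-control array 1 or any labelled-mutant array, Edil3 without any labelled-mutant array, Postn without labelled-control array 1 or 2 or labelled-mutant array 3, and Col1a1 without any array other than labelled-mutant array 1. Without labelled-mutant array 3 the count of calls in the list was 7, all lower. A floor at the 20th percentile, which lifts the lowest signals, gave 4 calls, 1 higher and 3 lower. Egfl6, Vcam1 and Col3a1 were the only ones of the 12 among them, and Ccn2 was not. Ccn2 also missed the threshold with trend and robust settings (limma, Benjamini-Hochberg adjusted p = 0.0514).

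**Figure D5:**
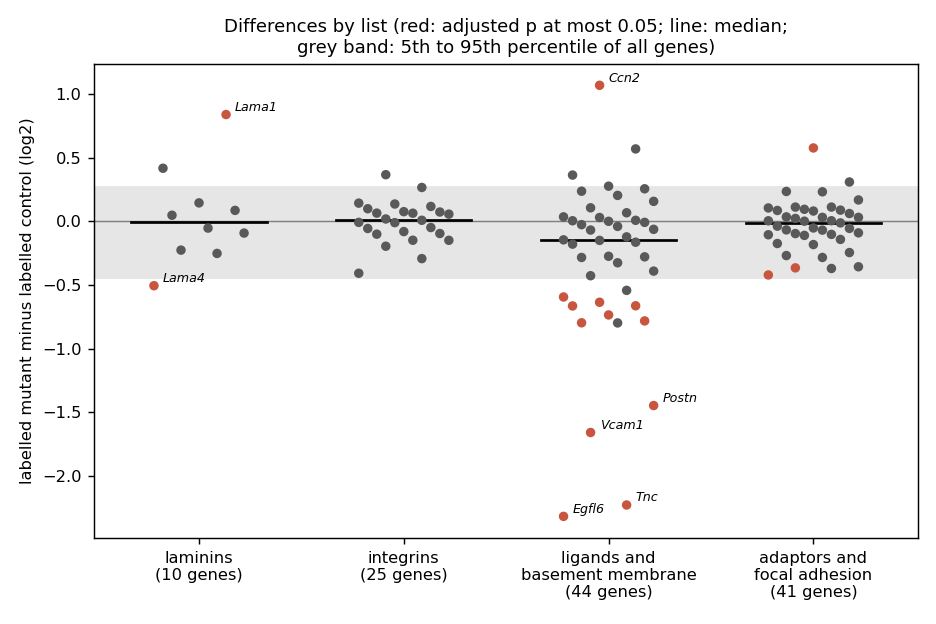
Difference between labels (log2) of each gene of the laminins (10), integrins (25), ligands and basement membrane genes (44) and adaptors (41); red points have an adjusted p of at most 0.05, lines are medians and the grey band spans the 5th to 95th percentile of all genes, -0.45 to 0.27. Red points lie mostly below the band among the ligands, and no integrin is red.

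Among genes of the adaptors that bind integrin tails, the share of calls was near that of all genes. Of 41 measured, 3 passed, 1 higher and 2 lower, against 5.53% of all genes called, with a median difference of -0.01. Parvb, an actin-binding partner of the integrin-linked kinase, read 7.25, 7.26 and 7.32 against 7.72, 8.05 and 7.78 and rose by 0.58 (limma, Benjamini-Hochberg adjusted p = 0.0119). Tns3, a tensin, fell by 0.37, and Flnc, the muscle filamin, by 0.42. Leaving out labelled-control array 2 ended the call of Parvb (adjusted p = 0.0535 by limma), as did averaging its 2 probe sets (a difference of 0.34, adjusted p = 0.134 by limma), and Tns3 and Flnc lost theirs without any array other than labelled-mutant array 1. With signals floored at the 20th percentile Parvb, Tns3 and Flnc all missed the threshold. Tns3 and Flnc also missed it with the replicate number as a block, and Tns3 with the mean of its probe sets. Tln1, the talin that activates integrins, differed by 0.08, the kindlin gene Fermt2 by 0.17 and Ilk by -0.01, none of them past the threshold.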

How the data were processed

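The deposited log2 values, 1 per probe set and array, were used as the authors processed them. The scale was inferred from the values (2.63 to 14.68 on every array), and all arrays share 1 distribution. The sources used here do not give background correction or software, and a shift of all genes would not be seen. Names came from the platform annotation of the array. Names of integrin-binding proteins (Itgb1bp, Itgb3bp and Itgbl) were left out. Itgb2l was kept. Differences were fitted with limma 3.58.1 (lmFit, eBayes, R 4.3.3), two-sided, without covariates, over all 18194 genes, and again over all probe sets. No array repeated another (at most 0.816% of values equal). The number of arrays limits the precision.

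The members and lists were chosen with earlier results of these data known. All 35 members are accounted for. Named with values are those past the threshold, the 8 integrin and 8 laminin genes with the largest differences among the rest, partners of these, called ligands and adaptors (others there were chosen after their values were seen) and the 3 markers of each cell type list with the largest absolute moderated t. Mesenchymal markers with a negative difference are named besides. Alternatives were a replicate block, quantile normalization, median centring, a floor at the 20th percentile, leaving out dim genes, the mean of probe sets, trend and robust settings, and leaving out each array. The procedure was tested on simulated data. Promoters came from RefSeq (GRCm38.p6).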

Additional observations from a re-analysis of the deposited data

How the results depend on the processing

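Leaving out dim genes and trend and robust settings kept the calls of Lama1 and Lama4. Quantile normalization and median centring kept them too, but could hardly change any value, since all arrays share 1 distribution. Under each of the 13 settings 0 integrin genes passed. With the replicate number as a block, 1 laminin gene passed in place of 2 (Lama4 at -0.51, limma's Benjamini-Hochberg adjusted p = 0.0891), 1 adaptor in place of 3 and 657 of all genes in place of 1007. The labels do not say whether same-numbered arrays belong together. Their deviations from the label means were correlated at -0.21, -0.12 and -0.07, which cannot settle it. With signals floored at the 20th percentile the counts were 1 laminin, 4 ligand and 1 adaptor genes, 0 member probe sets in place of 1 and 329 of all genes, with Lama4 at -0.51 (adjusted p = 0.103), although no signal of Lama4 lay at the floor. The adaptor called with floored signals was none of the 3 of the main fit. With the mean of probe sets 1 laminin gene and 1 adaptor passed, and Lama4 was at -0.35 (limma, Benjamini-Hochberg adjusted p = 0.0890). Leaving out 1 array gave 435 to 1021 of all genes (435 without labelled-mutant array 3, 481 without labelled-mutant array 2, 551 without labelled-control array 2), 0 to 3 adaptors, 7 to 15 ligands, 1 to 3 laminins, 0 to 2 member probe sets, Lama1 at 0.74 to 0.91 and Lama4 at -0.60 to -0.44. The sign turned without 1 array for 4 genes that had not passed, with a range of -0.0602 to 0.246 for Lamb3, -0.131 to 0.0622 for Lama3, -0.0792 to 0.179 for Lamc1 and -0.0233 to 0.117 for Ezh2. The cause of these changes was not tested. Signals near the array's low end limit what can be seen for the leukocyte chains, Itgb6 and Lama3.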

Other observations

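Genes whose symbols begin like those of integrin beta chains but which encode other proteins were looked at as well. Itgb1bp1, a cytoplasmic regulator of beta 1 integrins, averaged 8.79 ± 0.24 on labelled-control and 8.69 ± 0.04 on labelled-mutant arrays (SD, n = 3). Itgb1bp2, also called melusin and found in muscle, differed by -0.07, Itgb3bp, a centromere protein, by 0.19, and Itgbl1, a secreted protein with integrin-like repeats, by 0.15 at signals below the array's 25th percentile. None of these 4 genes passed with limma.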
